A study of Saccharomyces cerevisiae with 15 samples.

Results

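ITS2 is the internal transcribed spacer between the 5.8S and 25S rRNA genes, and RNA polymerase I (Pol I) occupancy was described here at each of its nucleotides. It was chosen by its place in the gene, as the 232 positions of 6858 that are annotated as ITS2, and positions are numbered in nucleotides past the mature 5.8S 3′ end, from +1 to +232. In the R64 assembly it is the annotated gene ITS2-2, chrXII:464319-464550 on the minus strand, inside the 35S gene RDN37-2. It has no exon or intron and codes for no protein. The annotated copies RDN37-1 and RDN37-2 differed at 0 ITS2 positions, so every value is a sum over the repeated rDNA copies.

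The 35S transcript of yeast carries 18S, 5.8S and 25S rRNA in one molecule, separated by spacers that are cut out after transcription. ITS2 folds into stem-loops and is opened by an endonuclease (the Las1 complex, at the C2 site), which leaves a 5.8S precursor with an ITS2 tail and a 25S precursor with an ITS2 leader. The exosome trims the tail back toward 5.8S, by way of an intermediate that reaches slightly past the mature end, and the exonucleases Rat1 and Xrn1 trim the leader. In NET-seq, or native elongating transcript sequencing, RNA that purifies with a polymerase is sequenced from its 3′ end. A 3′ end in ITS2 can therefore be that of a nascent chain held by Pol I or that of a precursor being processed, and these cannot be told apart here.

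The samples were 15 libraries of wild-type budding yeast in 5 groups of 3, made from lysates of frozen, broken cells in which Pol I carries an HA tag on its RPA135 subunit. MnCl2 + DNase I lysates had 10 mM MnCl2 and 100 U/mL DNase I for 20 min on ice, and MnCl2 lysates had the same without the nuclease, each with a further 30 min on ice after the stop. CaCl2 + MNase lysates had 5 mM CaCl2 and 100 U/µL micrococcal nuclease (MNase) for 2 min at 37 °C, and CaCl2 lysates had the same without the nuclease. All 4 of these groups then received 5 mM EDTA, a chelator, to stop the reaction. Untreated lysates had neither cation nor incubation, so a cation cannot be told apart from its incubation. One label passage gives DNase I as the enzyme of the MNase groups, and the group names were followed. Pol I was then immunoprecipitated and a linker with a molecular identifier was joined to the RNA 3′ ends.

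The sequence of ITS2 is shown because the most occupied nucleotides changed with the treatment. It is written 5′ to 3′ as RNA, from position +1 to +232. Capitals mark the 22 of 221 positions with the highest mean occupancy from +12 on, in the group named.
ITS2 MnCl2: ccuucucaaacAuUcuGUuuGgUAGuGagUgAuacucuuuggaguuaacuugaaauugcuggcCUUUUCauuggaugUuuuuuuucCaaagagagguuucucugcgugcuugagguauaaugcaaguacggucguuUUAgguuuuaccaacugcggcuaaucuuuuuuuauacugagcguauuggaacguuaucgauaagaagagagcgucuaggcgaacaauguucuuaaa
ITS2 untreated: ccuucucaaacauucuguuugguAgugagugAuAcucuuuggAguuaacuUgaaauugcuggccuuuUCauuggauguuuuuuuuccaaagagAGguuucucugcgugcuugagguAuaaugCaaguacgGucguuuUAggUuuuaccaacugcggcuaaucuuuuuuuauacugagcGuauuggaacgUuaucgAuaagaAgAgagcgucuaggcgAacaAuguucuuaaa
The marked sets shared 6 of 22 positions. In MnCl2 libraries 11 of the 22 were U and 4 were A, against 5 U and 12 A in untreated libraries. The highest 22 held 8 U and 7 A with MnCl2 + DNase I, 10 U and 5 A with CaCl2 + MNase, and 10 U and 4 A with CaCl2. The contrast with untreated libraries was thus not found with MnCl2 alone, and was smaller with MnCl2 + DNase I. The spacer is 37.1% U and 38.8% G plus C.

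The signal falls into 2 stretches that were kept apart. The first base, +1, was at 0 in all 15 libraries, as were the last bases of 5.8S just before it, and 9 positions of the gene shared this, 3 around the 3′ end of each mature rRNA. The next 10 positions, +2 to +11, hold high signal next to the mature 5.8S end and are shown in capitals in the window chrXII:464534-464558.
5.8S end: cgucauuucCUUCUCAAACauucug
The remaining 221 positions run from +12 to the last base before 25S. Occupancy is given in CPM, a normalised read count in which the reads at a position are divided by the reads of that library over the 35S gene and multiplied by 1000000.

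Depth over the gene ran from 2835792 to 13234585 reads per library, so 1 read was worth 0.0756 to 0.353 CPM. Positions +12 to +232 held 3619 to 4965 reads in MnCl2 + DNase I libraries, 3510 to 5678 in MnCl2, 20063 to 75024 in CaCl2 + MNase, 10478 to 75004 in CaCl2 and 38542 to 55501 in untreated libraries. The Mn groups are thus the thinnest, with 7 and 4 positions at 3 reads or fewer in all 3 libraries with and without DNase I. The labels do not say whether libraries of one group came from separate cultures for this series, so p-values measure the spread between these libraries, which may be technical.

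Some calcium libraries did not sort by their labels. Across the 221 positions, Spearman's rho of the library labelled CaCl2 replicate 3 was 0.940 and 0.944 with CaCl2 + MNase replicates 1 and 3, against 0.685 and 0.574 with CaCl2 replicates 1 and 2. The library labelled CaCl2 + MNase replicate 2 had rho 0.906 with CaCl2 replicate 1, against 0.631 and 0.721 with the other CaCl2 + MNase libraries. Untreated libraries had a mean rho of 0.965 among themselves, MnCl2 + DNase I libraries 0.872 and MnCl2 libraries 0.856. These are descriptions across positions of one gene, which are not replicates and share base composition and depth. Without one of these 2 libraries, 4 of 114 values at named positions gained a call and 0 lost one, and most calcium shares of ITS2 signal are also given without them.

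The first comparison asked how much of the occupancy lies in each stretch. Away from 5.8S, the share of 35S occupancy was lower in all 12 treated libraries than in untreated ones, and most of all with MnCl2. The total behind each share lay mostly in the mature genes. The 18S, 5.8S and 25S genes held 30.6%, 3.52% and 59.1% of it in untreated libraries and 32.5%, 3.83% and 62.2% with MnCl2. The study reports mature rRNA contamination in Pol I NET-seq libraries. Whether a lower share means less Pol I on ITS2 was not tested. Positions +12 to +232 held 0.103%, 0.0981% and 0.101% of 35S occupancy in MnCl2 + DNase I libraries, 0.124%, 0.105% and 0.120% in MnCl2 libraries, 0.590%, 0.538% and 0.567% in CaCl2 + MNase libraries, 0.366%, 0.269% and 0.589% in CaCl2 libraries, and 0.806%, 0.792% and 0.784% in untreated libraries. The log2 ratio to untreated was -2.98 with MnCl2 + DNase I and -2.77 with MnCl2, a share 6.84-fold lower with MnCl2. It was -0.49 with CaCl2 + MNase and -1.04 with CaCl2. None of these 4 groups overlapped the untreated one, but the CaCl2 value was -1.35 without the libraries numbered 3 and -0.78 without those numbered 2. A sum over chosen positions was given no p-value, and an exact permutation test of 3 against 3 libraries cannot go below 0.1.

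Next to 5.8S the manganese groups went the other way. Positions +2 to +11 held 0.456% ± 0.0289 of 35S occupancy with MnCl2 + DNase I, 0.583% ± 0.0813 with MnCl2, 0.283% ± 0.0100 with CaCl2 + MNase, 0.279% ± 0.0755 with CaCl2 and 0.266% ± 0.0197 in untreated libraries (SD, n = 3 each). The MnCl2 share was 2.18-fold that of untreated libraries and that with DNase I 1.72-fold, with no overlap in either case. Both calcium groups overlapped the untreated one. The 10 positions therefore made up 81.9% ± 1.28 and 83.3% ± 1.04 of the ITS2 signal in the 2 manganese groups, with and without DNase I, 33.4% ± 0.364 with CaCl2 + MNase, 41.5% ± 8.46 with CaCl2 and 25.05% ± 1.42 in untreated libraries (SD, n = 3 each). Without CaCl2 replicate 3 the CaCl2 value was 46.0%, and without CaCl2 + MNase replicate 2 that group's was 33.3%. The rise with manganese was not found in ITS2 alone. Against untreated, the 10 positions at the start of ITS1 rose 8.59-fold with MnCl2, 11.8-fold with CaCl2 + MNase and 7.76-fold with CaCl2. Those of ETS2 rose 1.62-fold, 2.48-fold and 2.19-fold in that order. They made up 56.2% of ITS1 and 70.7% of ETS2 signal with MnCl2, against 2.21% and 16.9% in untreated libraries.

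**Figure D1:**
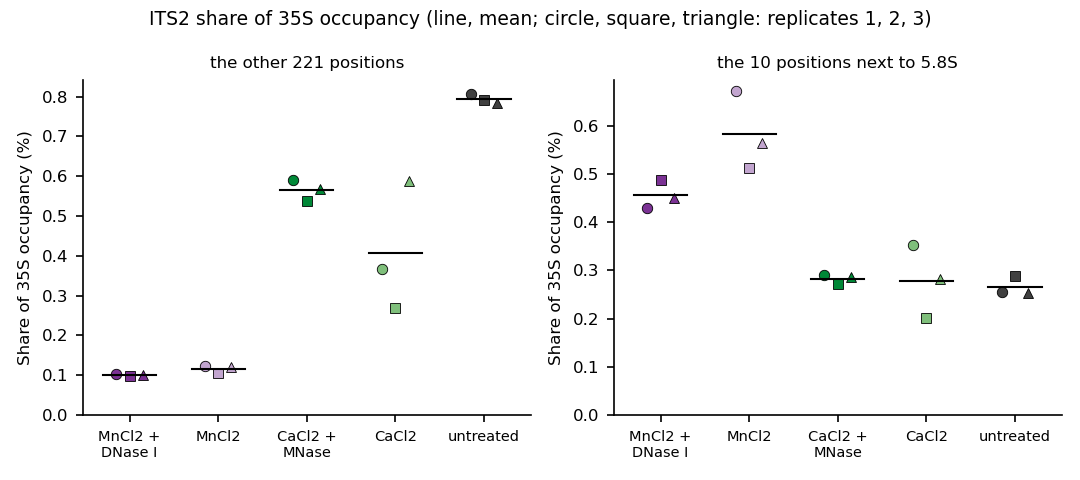
Share of 35S occupancy (%) in the 221 positions from +12 on (left) and the 10 positions next to 5.8S (right), 1 point per library with the replicate number as the symbol and the group mean as a line. Away from 5.8S the 3 untreated libraries, at 0.784% to 0.806%, lie above all others, while next to 5.8S the MnCl2 libraries are highest, at 0.512% to 0.672%.

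ITS2 lost less to MnCl2 than the spacers together did. Of the occupancy in the 4 spacers, leaving out the 10 positions after each mature 3′ end, positions +12 to +232 held 25.1% ± 0.695 with MnCl2 + DNase I, 24.3% ± 1.38 with MnCl2, 13.5% ± 0.840 with CaCl2 + MNase, 11.8% ± 1.03 with CaCl2 and 12.3% ± 0.605 in untreated libraries (SD, n = 3 each). Without the 2 libraries that stand apart, the shares were 13.7% with CaCl2 + MNase and 11.7% with CaCl2. The ETS1 spacer at the start of the gene had a log2 ratio of -4.85 with MnCl2 against untreated, ITS1 after its first 10 positions -2.73, and ETS2 after its first 10 positions -2.87. The ITS2 value of -2.77 thus lay near those of ITS1 and ETS2, and the rise in its share of spacer signal went with the larger fall of ETS1.

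Position by position, the 4 treated groups were each compared with untreated libraries by limma on log2(CPM + 1), with Benjamini-Hochberg adjustment over all tested positions of the gene and a call at an adjusted p under 0.05. Of the 221 positions, 215 were lower and 0 higher with MnCl2 + DNase I, where 48.2% of all tested 35S positions were lower, 27.5% higher and 75.7% called either way. With MnCl2, 210 were lower and 0 higher, against 44.2% lower, 28.6% higher and 72.9% called either way over the gene. The median log2 change was -2.29 and -2.07 in these comparisons, against -0.24 and -0.19 over all tested positions. Under median-ratio scaling, which moved the median over the gene by 0.20 and 0.14, 212 and 204 were lower and 0 higher, while the share of calls in the higher direction over the gene moved to 47.5% in place of 36.3% with DNase I and to 47.1% in place of 39.3% without.

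The calcium comparisons were weaker. With CaCl2 + MNase, 94 of the 221 were lower and 27 higher, against 54.7% called either way, 22.5% lower and 32.2% higher over the gene. With CaCl2, 86 were lower and 0 higher, against 32.3% called either way, 16.3% lower and 16.1% higher over the gene. Without CaCl2 replicate 3, 136 were lower and 0 higher. Leaving out an untreated library gave 51 to 54 lower. In the CaCl2 + MNase comparison, 42 were higher without CaCl2 + MNase replicate 2, 19 without its replicate 1 or 3, 18 without untreated replicate 2 and 16 without untreated replicate 1 or 3, with 68 to 98 lower.

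**Figure D2:**
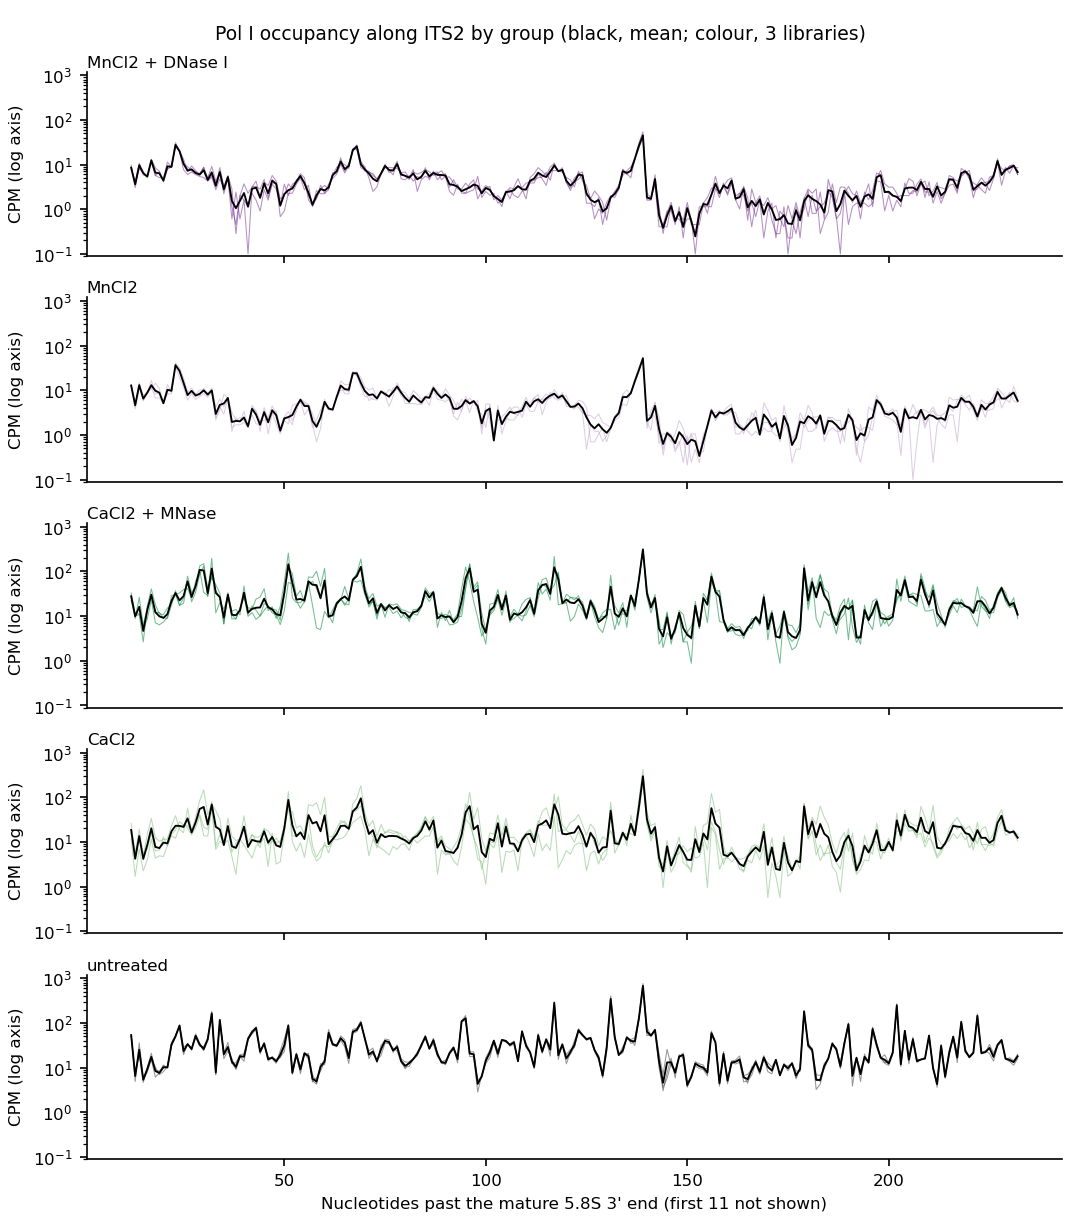
Mean occupancy (CPM, log axis, black) with the 3 libraries of each group in colour at ITS2 positions from +12 on, against the distance past the mature 5.8S 3′ end; values at 0 are drawn at 0.1 CPM. The highest point is 139 nt past 5.8S in every group, and the narrow peaks of the untreated libraries on the 3′ side are absent from the MnCl2 profiles.

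The highest position after the first stretch was +139, an A at the end of a run of 4 U. It ranked first of the 221 in all 15 libraries. It had 41.6, 54.0 and 39.5 CPM with MnCl2 + DNase I, 55.7, 50.3 and 50.8 CPM with MnCl2, 305, 306 and 320 CPM with CaCl2 + MNase, 238, 230 and 419 CPM with CaCl2, and 660, 611 and 765 CPM in untreated libraries. No treated group overlapped the untreated one. Against untreated, the log2 change was -3.89 (SE 0.12, limma adjusted p = 3.55e-11) with MnCl2 + DNase I, -3.67 (SE 0.12, limma adjusted p = 3.97e-11) with MnCl2, -1.12 (SE 0.10, limma adjusted p = 0.000127) with CaCl2 + MNase and -1.25 (SE 0.23, limma adjusted p = 0.00619) with CaCl2. The CaCl2 change was -1.53 without CaCl2 replicate 3, and the CaCl2 + MNase change was -1.11 without CaCl2 + MNase replicate 2. It held 4.48%, 4.49%, 5.50%, 7.24% and 8.55% of the signal from +12 to +232 in the same order with untreated last.

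Some of the other leading positions of untreated libraries had little signal left with MnCl2. Position +131, a G only 8 nt before +139, was second in untreated libraries and had the largest fall of all ITS2 positions. It had 1.71, 1.82 and 2.03 CPM with MnCl2 + DNase I, 1.41, 1.45 and 1.48 CPM with MnCl2, 14.1, 82.8 and 40.7 CPM with CaCl2 + MNase, 54.1, 77.9 and 17.9 CPM with CaCl2, and 403, 346 and 289 CPM in untreated libraries. The mean with MnCl2 was 239-fold lower than in untreated libraries (log2 change -7.13, SE 0.17, limma adjusted p = 8.06e-12) and rested on 4, 6 and 7 reads. Calcium libraries spread widely at this position, and the lowest of them were the 3 that resemble each other.

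Position +202, an A, averaged 1.90 ± 0.347 CPM with MnCl2 + DNase I and 2.47 ± 0.999 CPM with MnCl2 (SD, n = 3 each), and had 22.4, 67.7 and 25.8 CPM with CaCl2 + MNase, 44.3, 29.7 and 17.0 CPM with CaCl2, and 264, 211 and 267 CPM in untreated libraries. Its mean was 100-fold lower with MnCl2 (log2 change -6.19, SE 0.21, limma adjusted p = 5.91e-11) and 8.15-fold lower with CaCl2 (log2 change -3.08, SE 0.31, limma adjusted p = 0.000464), the largest fall in that group. That CaCl2 change was -2.73 without CaCl2 replicate 3. The MnCl2 mean at +202 rested on 6, 7 and 17 reads. All 12 treated libraries were below the 3 untreated ones. Position +179, a G, averaged 1.51 CPM with MnCl2 + DNase I, 1.84 with MnCl2, 118 with CaCl2 + MNase, 62.5 with CaCl2 and 182 in untreated libraries, so it fell far more with manganese than with calcium. Position +222, an A only 10 nt before the last base of the spacer, averaged 3.30, 2.59, 21.5, 18.4 and 145 CPM in that order. Position +117, an A, averaged 9.52, 8.43, 124, 69.2 and 283 CPM. The MnCl2 means rested on 6, 8 and 7 reads at +179 and on 6, 12 and 13 reads at +222.

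**Figure D3:**
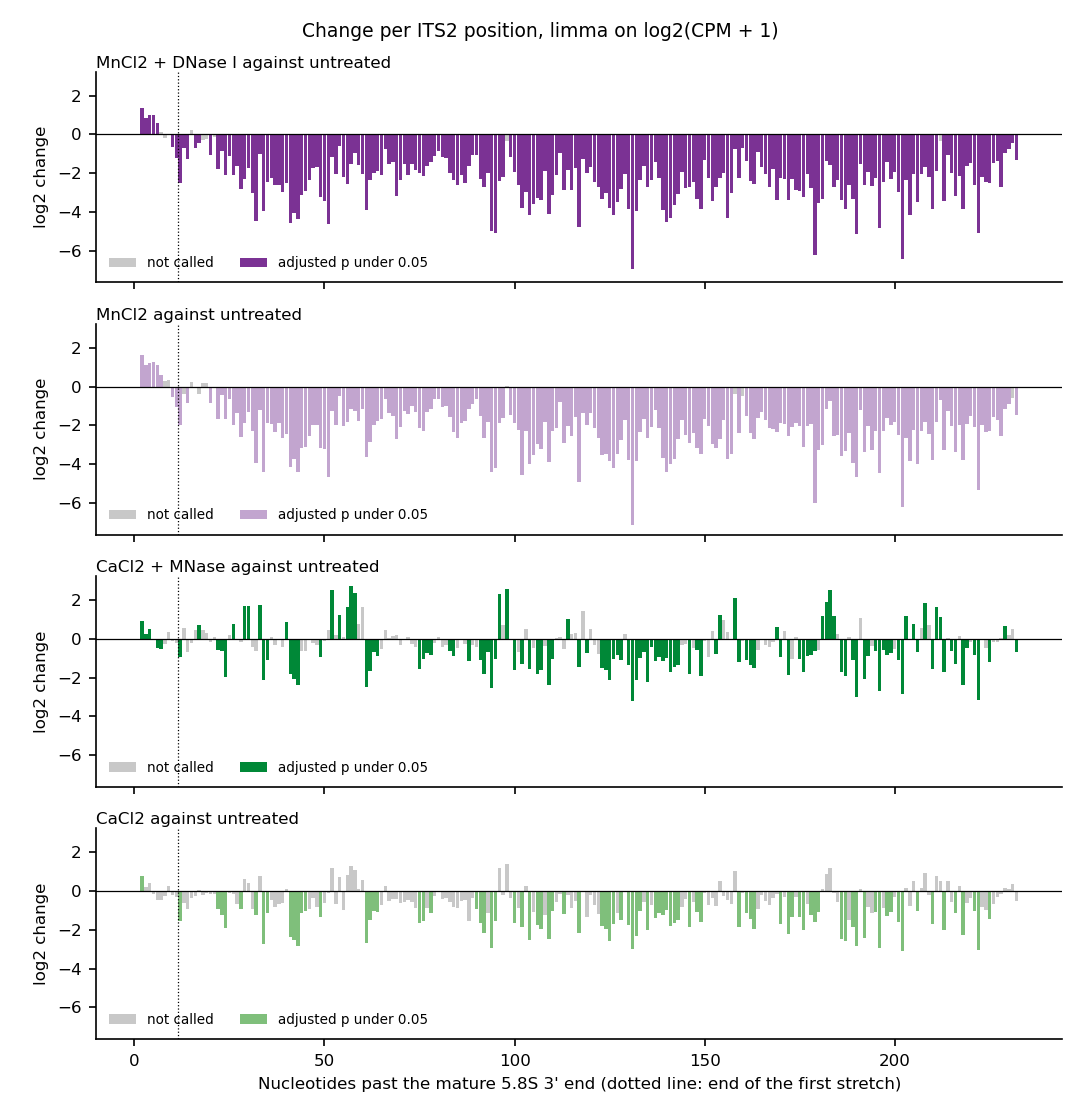
Log2 change of each treated group against untreated at ITS2 positions +2 to +232, from limma on log2(CPM + 1), with called positions in colour and others in grey. In both MnCl2 panels the first positions rise and almost all others fall, down to -7.13. The CaCl2 + MNase panel has 30 called rises among 231 positions, where 32.2% of tested positions were called higher over the gene.

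Positions ranked next after +139 in either manganese group were mostly U, and they kept more of their signal than the positions just described. They were picked by rank, not by the share of signal kept. With MnCl2, 77 of 83 U from +12 on were called lower. For A it was 51 of 53, for G 51 of 53 and for C 31 of 32. Position +23, a U, was second in both manganese groups, with 25.9, 25.8 and 31.0 CPM with MnCl2 + DNase I and 41.3, 35.1 and 33.8 CPM with MnCl2, against 52.1, 50.6 and 48.0 CPM in untreated libraries. Its log2 change with MnCl2 was -0.45 (SE 0.15, limma adjusted p = 0.0158), and the call was lost in 6 alternatives: in a joint fit of the 15 libraries (limma adjusted p = 0.171), under median-ratio scaling (limma adjusted p = 0.0787), on recovered reads (edgeR adjusted p = 0.102), and without MnCl2 replicate 2 or 3 or untreated replicate 1 (limma adjusted p = 0.0514, 0.0585 and 0.0581). The neighbouring +24, an A, averaged 27.1 CPM with MnCl2 and 87.5 CPM in untreated libraries. Positions +67 and +68, which end a run of 4 U, averaged 24.3 and 24.0 CPM with MnCl2 and 63.9 and 70.2 CPM in untreated libraries. Position +138, the U before +139, averaged 28.5 CPM with MnCl2 and 126 CPM in untreated libraries. All 5 were lower with MnCl2 on this scale, and all 5 were higher once each library was scaled to its own sum from +12 to +232.

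By the last base of the transcript, the shares of U and A also differed over the whole stretch. Positions ending in U carried 41.2% ± 0.707 of the signal with MnCl2 + DNase I, 42.6% ± 1.19 with MnCl2, 37.0% ± 3.396 with CaCl2 + MNase, 35.7% ± 3.25 with CaCl2 and 26.0% ± 1.19 in untreated libraries (SD, n = 3 each). Positions ending in A carried 27.9% ± 0.317, 26.7% ± 0.631, 25.3% ± 6.36, 27.6% ± 4.92 and 39.5% ± 1.32 in that order. Without CaCl2 + MNase replicate 2 and CaCl2 replicate 3, U carried 38.9% with CaCl2 + MNase and 34.1% with CaCl2, and A carried 21.7% and 30.4%. Without position +139 the share of A was 23.3% with MnCl2 and 33.8% in untreated libraries. With CaCl2, 35 of 53 positions ending in A were called lower, against 14 of 32 ending in C, 19 of 53 ending in G and 18 of 83 ending in U. Without CaCl2 replicate 3 these counts were 42, 22, 35 and 37, and without one untreated library they were 25 to 27, 3 to 4, 13 and 10. Without CaCl2 replicate 1 they were 31, 7, 17 and 14. In the other 3 spacers after their first 10 positions, 57.3% of A and 21.6% of U were called lower with CaCl2, so the contrast between A and U was not found in ITS2 alone. With MnCl2 the median log2 change against untreated in those spacers was -3.35 for A and -2.29 for U, and in ITS2 -2.53 and -1.81.

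Signal also shifted toward 5.8S along the spacer, most with MnCl2 but in the other treated groups too. The first 55 of the 221 positions held 31.0% ± 0.616 of the signal with MnCl2 + DNase I, 32.7% ± 0.706 with MnCl2, 30.3% ± 1.59 with CaCl2 + MNase, 26.9% ± 1.76 with CaCl2 and 21.7% ± 0.421 in untreated libraries (SD, n = 3 each). The last 56 positions held 18.9% ± 1.23, 16.4% ± 1.26, 22.1% ± 1.23, 22.3% ± 3.88 and 23.7% ± 0.537 in that order. The third window, +122 to +176, which holds +131 and +139, had 19.2%, 18.6%, 19.6%, 23.8% and 29.2%. Leaving out the same 2 calcium libraries gave the first 55 positions 29.7% with CaCl2 + MNase and 26.2% with CaCl2, the last 56 positions 22.5% and 23.5%, and the third window 19.6% and 24.01%. The profile with MnCl2 had a mean Spearman's rho of 0.357 with the untreated profile and 0.848 with the profile with MnCl2 + DNase I.

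Next to 5.8S, MnCl2 raised the first 6 positions and lowered the last 2. Position +6, the U with the highest mean of the stretch in untreated libraries, had 984, 1075 and 993 CPM with MnCl2 + DNase I, 1766, 1265 and 1412 CPM with MnCl2, 451, 517 and 530 CPM with CaCl2 + MNase, 709, 353 and 512 CPM with CaCl2, and 654, 751 and 656 CPM in untreated libraries. The log2 change with MnCl2 was 1.10 (SE 0.15, limma adjusted p = 1.98e-05) and with MnCl2 + DNase I 0.57 (SE 0.10, limma adjusted p = 0.000144). With CaCl2 + MNase it was -0.46 (SE 0.10, limma adjusted p = 0.00578). Both manganese groups lay above the untreated libraries and CaCl2 + MNase below them, while the CaCl2 libraries overlapped them.

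At +2, the C nearest 5.8S with any signal, all 4 treated groups were higher. It had 752, 816 and 726 CPM with MnCl2 + DNase I, 1092, 816 and 899 CPM with MnCl2, 604, 536 and 553 CPM with CaCl2 + MNase, 662, 394 and 533 CPM with CaCl2, and 293, 339 and 272 CPM in untreated libraries. The log2 changes were 1.35, 1.63, 0.91 and 0.79 in that order, with limma adjusted p of 6.56e-08, 2.04e-07, 0.000336 and 0.0198. The CaCl2 call was lost without CaCl2 replicate 1 (log2 change 0.61, limma adjusted p = 0.0534) and without untreated replicate 1 or 3 (limma adjusted p = 0.0707 and 0.0896).

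Of the 10 positions, 5 rose and 2 fell with MnCl2 + DNase I, 6 rose and 2 fell with MnCl2, 3 rose and 2 fell with CaCl2 + MNase, and 1 rose with CaCl2. Over the gene, 75.7%, 72.9%, 54.7% and 32.3% of tested positions were called either way in that order. Of all tested positions, 27.5%, 28.6%, 32.2% and 16.1% were higher, and 48.2%, 44.2%, 22.5% and 16.3% lower. The falls with manganese were at the far end of the stretch, +10 and +11, although the call at +10 with MnCl2 + DNase I was lost on recovered reads (log2 change -0.36, edgeR adjusted p = 0.0668). Position +11, the last inside it, averaged 17.4 ± 4.77 CPM with MnCl2 and 36.7 ± 1.22 CPM in untreated libraries, and +12, the first outside, 12.8 ± 0.543 and 53.5 ± 0.882 CPM (SD, n = 3). Positions +2 to +4 held 45.2%, 42.9%, 51.9%, 50.6% and 37.0% of the stretch in MnCl2 + DNase I, MnCl2, CaCl2 + MNase, CaCl2 and untreated libraries, so within the stretch each treated group leaned toward 5.8S. Just inside 5.8S, the base at -2 averaged 2573 CPM with MnCl2 and 1553 CPM in untreated libraries, and at the start of 25S positions +235 and +236 averaged 91.3 and 94.9 CPM with MnCl2, against 17.3 and 13.1 CPM in untreated libraries.

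**Figure D4:**
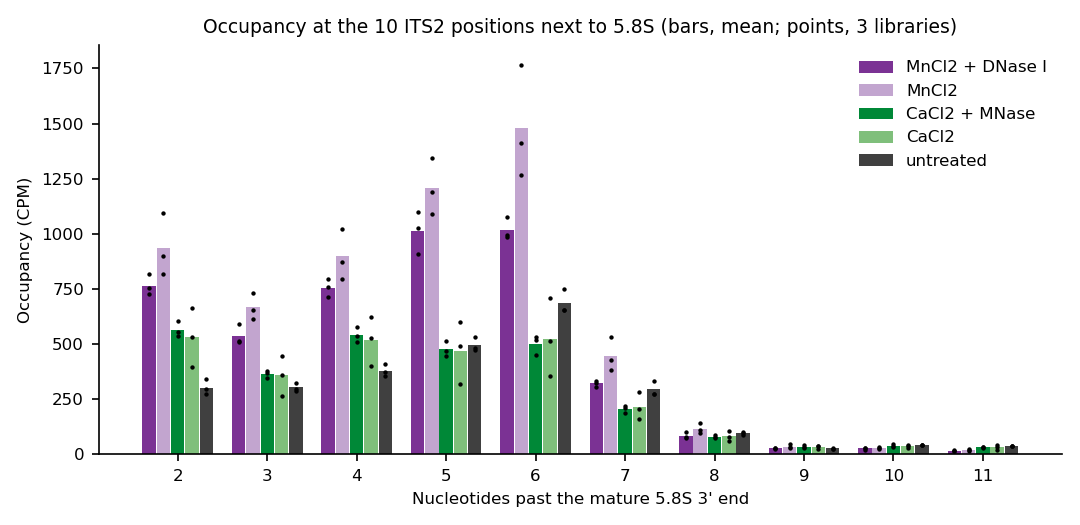
Occupancy (CPM) at the 10 ITS2 positions next to 5.8S, against the distance past the mature 5.8S 3′ end, as group means (bars) with the 3 libraries as points. At 6 nt past 5.8S the MnCl2 mean is 1481 CPM and the untreated mean 687 CPM, and from 8 nt on all groups are low.

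The next comparison asked what MNase added to CaCl2. None of the 231 tested ITS2 positions was called by limma, where 0% of positions were called over the gene. Of the 231, 8 had an unadjusted p under 0.05, against 156 of 6841 over the gene. With the replicate number as a block these numbers were 21 and 254. The groups did not overlap at 15 of the 231 positions, 14 of them higher with MNase, against 8.11% of positions over the gene (3.96% higher and 4.15% lower). The share from +12 to +232 was 1.46-fold that with CaCl2 alone (log2 0.55) and the groups overlapped, with log2 ratios of 0.32 without the libraries numbered 2 and 0.85 without those numbered 3. Without CaCl2 replicate 3 still 0 positions were called, with 71 at an unadjusted p under 0.05, against 790 of 6839 over the gene. The highest log2 changes without overlap, none of them called, were at +13, +55 and +29 (log2 1.18, 1.04 and 1.04, limma adjusted p = 0.928 for each).

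The rises of CaCl2 + MNase over untreated followed the libraries more than the labels. Among positions where the groups did not overlap, the 5 largest were at +57, +98, +52, +96 and +158, with log2 changes of 2.74, 2.59, 2.53, 2.33 and 2.09. The called rises at +183 and +58, of 2.54 and 2.37, were larger than some of these, but the groups overlapped there. Position +98, a U, had 58.6, 9.24 and 49.6 CPM with CaCl2 + MNase, 7.33, 4.14 and 58.1 CPM with CaCl2, and 5.23, 4.90 and 2.85 CPM in untreated libraries (log2 change of CaCl2 + MNase against untreated 2.59, SE 0.61, limma adjusted p = 0.00784). Without CaCl2 + MNase replicate 2 that change was 3.397 on the log2 scale. Position +158, a U, had 36.5, 7.54 and 37.6 CPM with CaCl2 + MNase, 6.63, 2.44 and 53.3 CPM with CaCl2, and 4.94, 4.54 and 3.86 CPM in untreated libraries. At both, the libraries labelled CaCl2 + MNase replicates 1 and 3 and CaCl2 replicate 3 were high, and the other 3 calcium libraries were at 2.44 to 9.24 CPM.

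At 16 of the 221 positions each of these 3 libraries had more than 2 times the highest value among the other 12 libraries, which was so at 7.24% of these positions at 7.11% in ETS2, 6.09% in ITS1, 5.43% in ETS1 and 1.53% over the 6858 positions of the gene. This set was chosen after its values were seen and was given no test. None of the 16 was an A, 9 were U, 5 were G and 2 were C. The widest gap was at +183, where the 3 libraries had 63.1 to 87.1 CPM and the other 12 had 0.285 to 8.65 CPM. The 3 windows below show the RNA around 3 of these positions, with the last base of the transcript in capitals.
RNA around +98: aaagagagguUucucugcgug
RNA around +158: caacugcggcUaaucuuuuuu
RNA around +183: cugagcguauUggaacguuau
They lie on the minus strand of R64 at chrXII:464443-464463, chrXII:464383-464403 and chrXII:464358-464378.

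**Figure D5:**
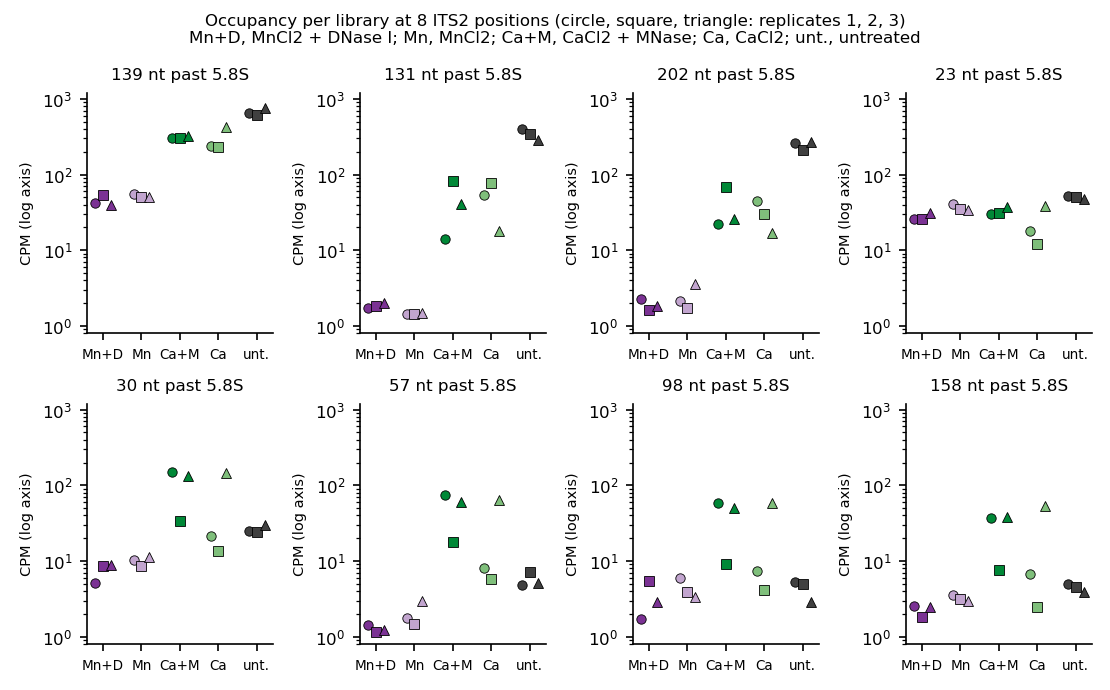
Occupancy (CPM, log axis) per library at 8 ITS2 positions named by their distance past 5.8S, with the replicate number as the symbol. In the top row all untreated libraries are high and MnCl2 libraries low at 139, 131 and 202 nt, and in the bottom row CaCl2 replicate 3 (triangle) sits with CaCl2 + MNase replicates 1 and 3.

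With DNase I on top of MnCl2, no single ITS2 position stood out, though the shares of both stretches were lower. None of the 231 tested positions was called by limma, where 0.238% were called over the gene (0.0595% higher and 0.178% lower). Of the 231, 39 had an unadjusted p under 0.05 by limma, against 1380 of 6725 over the gene. By edgeR on recovered reads these numbers were 26 and 1202, and 0 of the 231 were called. The groups did not overlap at 9 positions higher and 36 lower with DNase I, against 26.6% of positions over the gene (7.26% higher and 19.3% lower). Over the gene, 65.2% of the few calls were higher under median-ratio scaling, in place of 4 of 16 calls, with 0 calls in ITS2 under either. Without MnCl2 replicate 1, 3 of the 231 positions were called, where 233 of 6707 were called over the gene. Without MnCl2 replicate 3, 2 were called, where 177 of 6700 were called over the gene. The share from +12 to +232 was lower with DNase I by 0.21 on the log2 scale, and that from +2 to +11 by 0.35, with no overlap of the libraries in either stretch. The lowest log2 changes without overlap, none of them called, were at +169, +174 and +95 (log2 -1.05, -1.002 and -0.91, limma adjusted p = 0.128, 0.119 and 0.0827).

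The effect of MNase on CaCl2 and that of DNase I on MnCl2 were compared by an interaction term in limma. It called 0 of the 231 positions and 0% over the gene. Of the 231, 27 had an unadjusted p under 0.05, against 668 of 6847 over the gene. The ITS2 number was 8 without the libraries numbered 1, 13 without those numbered 2 and 48 without those numbered 3, with 0 calls each time. Over the gene these numbers were 329, 401 and 645.

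MnCl2 and CaCl2 differed from each other in the same 2 directions. From +12 on, 137 of 221 positions were lower and 0 higher with MnCl2 than with CaCl2, and next to 5.8S 6 of 10 were higher and 0 lower, against 42.2% called either way, 32.6% lower and 9.54% higher over the gene. Under median-ratio scaling, which moved the median over the gene by 0.24, 110 were lower and 1 higher from +12 on, and calls over the gene in the higher direction made up 45.7% in place of 22.6%. Without CaCl2 replicate 3, 126 were lower and 1 higher, and without MnCl2 replicate 2, 87 were lower. The largest fall was at +51, a U with 1.76, 2.42 and 3.38 CPM with MnCl2 and 134, 75.4 and 52.0 CPM with CaCl2 (log2 change -4.56, SE 0.37, limma adjusted p = 5.68e-05), where CaCl2 libraries averaged 87.1 CPM and untreated libraries 87.2 CPM. The cation cannot be told apart from its incubation here, since the CaCl2 lysates were at 37 °C for 2 min and the MnCl2 lysates on ice for 20 min.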

How the data were processed

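The members and lists were chosen with earlier results of these data known. Per the labels and the study's methods, the authors removed molecular-identifier duplicates, aligned reads with STAR 2.7.1a to R64 and took RNA 3′ ends per nucleotide with bedtools 2.28.0. ITS2 is positions 3020 to 3251 of the deposited tables, so +1 is 3020. The deposited values are CPM, for which the authors divided by the library's reads over 35S up to position 6739. The authors' ratios and p-values per position were not used, and 0 other columns of single libraries were left out. Values were whole multiples of 1 read (within 0.05 read) at 99.7% to 99.99% of positions. The step was settled in 13 of 15 libraries, and the depths of CaCl2 replicate 3 and CaCl2 + MNase replicate 3 are less certain.

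Each of 7 pairs was fitted with limma 3.58.1 (R 4.3.3, eBayes with trend) on log2(CPM + 1), over positions above 0 in at least 3 of 6 libraries, with Benjamini-Hochberg adjustment over the gene. On this scale the change of low positions is understated. The nucleases were compared over 12 libraries by an interaction term in limma. edgeR 4.0.16 (quasi-likelihood, TMM) was run on recovered reads for 3 pairs. Alternatives were a pseudocount of 0.25, no filter, a replicate block, all libraries in one fit, median-ratio scaling, scaling to the sum from +12 to +232, other stretch boundaries and each library left out. Calcium group shares without CaCl2 replicate 3 or CaCl2 + MNase replicate 2 were added after seeing the data. Same-numbered libraries of MnCl2 and CaCl2 had weakly correlated deviations (r = 0.149, 0.214 and 0.115 across positions). The labels do not say that the numbers pair libraries across groups, and positions are not replicates, so pairing was not settled. For MnCl2 against CaCl2 the block called 158 ITS2 positions in place of 143. Named positions were the 10 members next to 5.8S, the 10 highest in untreated and 5 highest in each treated group, and the 5 (or 3, between treated groups) largest non-overlapping changes each way. The fit was tested on simulated data.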

Additional observations from a re-analysis of the deposited data

Results flagged for a closer look

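At +29, a G, every CaCl2 + MNase library was above every CaCl2 library, while every MnCl2 + DNase I library was below every MnCl2 library. Position +29 was named for its rise with MNase over CaCl2 without overlap, so that separation was set by the choice. Among named positions, it was the only one where the libraries with and without nuclease separated in opposite directions. It had 133, 107 and 84.8 CPM with CaCl2 + MNase, against 41.9, 38.2 and 83.6 CPM with CaCl2, so the library labelled CaCl2 replicate 3 all but met the lowest library with MNase. It had 5.41, 6.15 and 6.28 CPM with MnCl2 + DNase I, against 10.2, 7.26 and 7.61 CPM with MnCl2. The effect of MNase minus that of DNase I was 1.46 on the log2 scale (SE 0.40, limma interaction term, unadjusted p = 0.00266, limma adjusted p = 0.508), so the difference did not pass the adjustment over the gene.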

How the results depend on the processing

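With MnCl2, with or without DNase I, the rises next to 5.8S kept their direction in every fit. The falls from +12 on did too, except as a share of the spacers or scaled to the sum from +12 to +232. As a share of the 4 spacers without the 10 positions after each mature end, the log2 ratio of +12 to +232 against untreated libraries was 1.03 with MnCl2 + DNase I, 0.99 with MnCl2, 0.14 with CaCl2 + MNase and -0.057 with CaCl2, and it was 0.046 for MnCl2 + DNase I against MnCl2 and 1.04 for MnCl2 against CaCl2. With 15 positions left out next to 5.8S it was -3.01 for MnCl2 + DNase I, and the share of the first 5 positions gave 0.18 for CaCl2 + MNase and 0.92 for MnCl2 + DNase I.

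Scaling each library to its sum from +12 to +232 changed the sign of 43 of 163 values at named positions, of which 23 were called under one scaling or the other and are given here. Against untreated, the log2 change was then 0.91, 0.82 and 0.92 at +5, +10 and +51 with CaCl2, and 0.43 and 0.031 at +5 and +6 with CaCl2 + MNase. With MnCl2 it was 2.15, 1.59, 2.26, 1.03, 1.34 and 0.61 at +10, +11, +23, +24, +67 and +138. With MnCl2 + DNase I it was 2.75, 2.85, 2.26, 1.65, 2.05, 1.35, 1.47 and 0.70 at +8, +9, +10, +11, +23, +67, +68 and +138. For MnCl2 against CaCl2 it was 1.33, 0.88, 0.82 and 0.70 at +10, +11, +67 and +138, and 94 ITS2 positions were called in place of 143. These turns follow from the construction of that scaling, which sets the sum equal.

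With 1 library left out, the CaCl2 against untreated count ran from 51 to 137, that of MnCl2 + DNase I against MnCl2 from 0 to 3, and that of MnCl2 against CaCl2 from 93 to 178. The share next to 5.8S with CaCl2 + MNase ran from 0.049 to 0.18 on the log2 scale. The replicate block against untreated gave 221 calls with MnCl2 + DNase I, 218 with MnCl2, 112 with CaCl2 + MNase and 77 with CaCl2, and 0 for each nuclease comparison. In CaCl2 + MNase and CaCl2, same-numbered libraries did not all deviate together, with r of -0.376, 0.383 and 0.469. Thin counts in the manganese groups limit single positions there, and edgeR was not run for the 4 comparisons that hold a library of uncertain depth.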
